A study of Mus musculus with 26 samples.

Results

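A set of 283 transcripts, of 22180 genes measured, was less reduced over 8 h in mouse embryonic stem cells with either m6A methyltransferase knocked down than in cells with a scramble control. Each gene was read on its brightest probe set that a probe table pairs with 1 symbol. A member had a mean log2 signal of 8 or more in scramble at 0 h, a scramble change from 0 h to 8 h of -0.5 or lower, and a change in Mettl14 KD and in Mettl3 KD that was higher than this scramble change by 0.4 or more in each. Histone genes and Klf2, Klf4, Tbx3, Fgf4, Bmp4, Wtap and Herpud1 were left out by name. Those 7 named genes met the thresholds and no histone gene did. The members were thus chosen by measured changes on the 0 h and 8 h time course arrays, so values on those arrays are given below as a description without a test.

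N6-methyladenosine (m6A) is a methyl mark placed on messenger RNA while it is made. Mettl3 carries the catalytic site of the writer complex, and Mettl14 is its partner that holds the RNA substrate. Reader proteins bind the mark, and some of them bring the marked RNA to the deadenylation and decay machinery, so that m6A is known for shortening the life of many transcripts in embryonic stem cells.

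The cells were J1, a line of mouse embryonic stem cells, grown with serum and leukaemia inhibitory factor on irradiated embryonic fibroblasts, which are a second possible source of RNA. The time course had Mettl14 KD, Mettl3 KD and scramble at 0 h, 4 h and 8 h, with 2 arrays in each of 9 groups. A repeat set at 0 h had Mettl14 KD with its own scramble and Mettl3 KD with its own scramble, again with 2 arrays in each of 4 groups. Replicate 2 of each scramble group in the repeat set is described as 4 h in a single label field and as 0 h in the others, and it was used as 0 h. The labels name both lentiviral short hairpins and transfected siRNAs without saying which arrays had which, and they name no agent for the 4 h and 8 h incubations. The scramble samples carry "Wild type" as their treatment label. The siRNA target sequences in the labels are shown because they are the knockdown sequences the labels give, in lower case as no base within them is singled out, and whether they apply to these arrays is not known.
Mettl14 target A: ccggatgtacagaggaaat
Mettl14 target B: gggaactcatcagactaaa
Mettl14 target C: gcacctcggtcatttatat
Mettl3 target A: ggactgcgatgtgattgta
Mettl3 target B: gacgaattatcaataagca

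The targeted transcripts were low in their own knockdowns. Mettl14 averaged 7.40, 6.73 and 6.48 log2 units at 0 h, 4 h and 8 h in Mettl14 KD, against 9.09, 9.21 and 9.13 in scramble. The only probe set listed for Mettl3 is shared with Tox4, and it averaged 9.15, 8.33 and 8.03 in Mettl3 KD, against 11.04, 10.98 and 10.68 in scramble. At 4 h Actb averaged 12.09 in Mettl14 KD, 12.05 in Mettl3 KD and 11.95 in scramble, and Gapdh averaged 13.61, 13.61 and 13.56. All values are log2 RMA signals, which are relative within an array: the median gene changed by 0.15 from 0 h to 8 h in scramble, by 0.12 in Mettl14 KD and by 0.11 in Mettl3 KD. Setting the median of a list of long-lived transcripts equal in all arrays would move the 8 h change of each gene by -0.21 in Mettl14 KD, -0.21 in Mettl3 KD and -0.33 in scramble. It would move the differences at 4 h by -0.07 and -0.05. Precision is limited by the 2 arrays in each group.

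The members started at a median of 9.20 log2 units in scramble and stood at 8.10 after 8 h. Their median change over 8 h was -0.47 in Mettl14 KD and -0.49 in Mettl3 KD, against -1.10 in scramble, which leaves 46.7% of the starting signal in scramble. The change exceeded that of scramble by 0.40 to 1.41 in Mettl14 KD and by 0.40 to 1.34 in Mettl3 KD, with medians of 0.58 and 0.58. Over all 14787 genes tested the median excess was 0.01 and 0.01. Of these genes, 3.42% had an excess of 0.4 or more in both knockdowns, a condition of the rule itself. The same scramble decrease and starting level were met by 1159 other genes, called comparison transcripts here, whose median excess was 0.14 in Mettl14 KD and 0.16 in Mettl3 KD. These are the genes left once the members are taken out, so their lower excess follows in part from the rule. An excess of -0.4 or lower in both knockdowns was seen for 20 of the comparison transcripts. By 4 h the median member had reached 50.3% of its 8 h scramble change, and the median comparison transcript 51.7%.

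**Figure D1:**
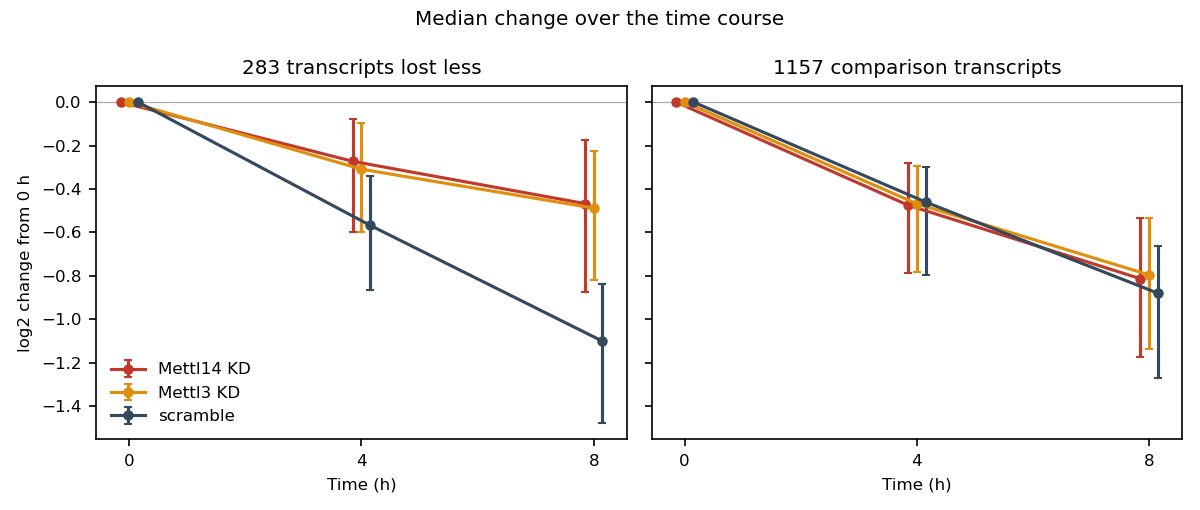
Median log2 change from 0 h (vertical axis) at 0, 4 and 8 h for the 283 members (left) and the 1157 comparison transcripts that passed the filter on dim genes (right), with bars from the 25th to the 75th percentile over transcripts. At 8 h the members' medians are -0.47 in Mettl14 KD, -0.49 in Mettl3 KD and -1.10 in scramble, and those of the comparison transcripts are -0.81, -0.80 and -0.88. The contrast between the panels at 8 h follows in part from the rule, which sorted these genes by their 8 h changes.

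The set depends on single scramble arrays. Without the first scramble array at 8 h the rule gives 427 genes, 267 of them members, and without the second it gives 213 genes, 193 of them members. In 55 members the excess in a knockdown lay between 0.4 and 0.45. The scramble signal at 8 h was under 6.5 in 10 members. Sema4b, a semaphorin, lay just inside the limit on the scramble change at -0.5002, and Ndufaf4 just outside at -0.4996. Zfp518b lay just inside the limit on the excess in Mettl14 KD at 0.403, and Rbm12b2 just outside at 0.399. For Mettl3 KD, Adpgk lay just inside at 0.403 and Acvr1b, a type I activin receptor, just outside at 0.398. On the starting level, Tmem115 lay just inside at 8.005 and LOC100861738 just outside at 7.995.

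The 4 h arrays took no part in choosing the members. Each knockdown was compared with scramble on them with limma over 14787 genes, at a Benjamini-Hochberg adjusted p of 0.05. In Mettl14 KD, 132 members were higher than scramble (46.6%) and 32 were lower (11.3%), where 20% of all genes tested were higher and 19.5% were lower. In Mettl3 KD, 126 members were higher (44.5%) and 39 were lower (13.8%), where 19.4% of all genes were higher and 18.4% were lower. The comparison transcripts showed 18.4% higher and 26% lower in Mettl14 KD and 18.9% higher and 22.5% lower in Mettl3 KD. Both knockdowns share the scramble arrays, and a difference at 4 h includes any that was there at 0 h. In both, 115 members were higher and 29 lower, with background shares of 15.6% and 14.1%, and 0 members passed in opposite directions. The members lower in Mettl14 KD numbered 20 without the first and 20 without the second scramble array of 4 h and 19 without the first Mettl14 KD array, and 25 were lower in Mettl3 KD without its second array. The median difference over the members was 0.21 in Mettl14 KD and 0.20 in Mettl3 KD, over the comparison transcripts -0.06 and -0.05, and over all genes -0.01 and -0.02. Both Mettl14 KD arrays lay above both scramble arrays at 4 h for 187 members, where this held for 35% of all genes, and both Mettl3 KD arrays did so for 171 members, where it held for 33.4%. Both arrays lay below both scramble arrays for 63 members in Mettl14 KD and 72 in Mettl3 KD, where this held for 37.2% and 38.1% of all genes.

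**Figure D2:**
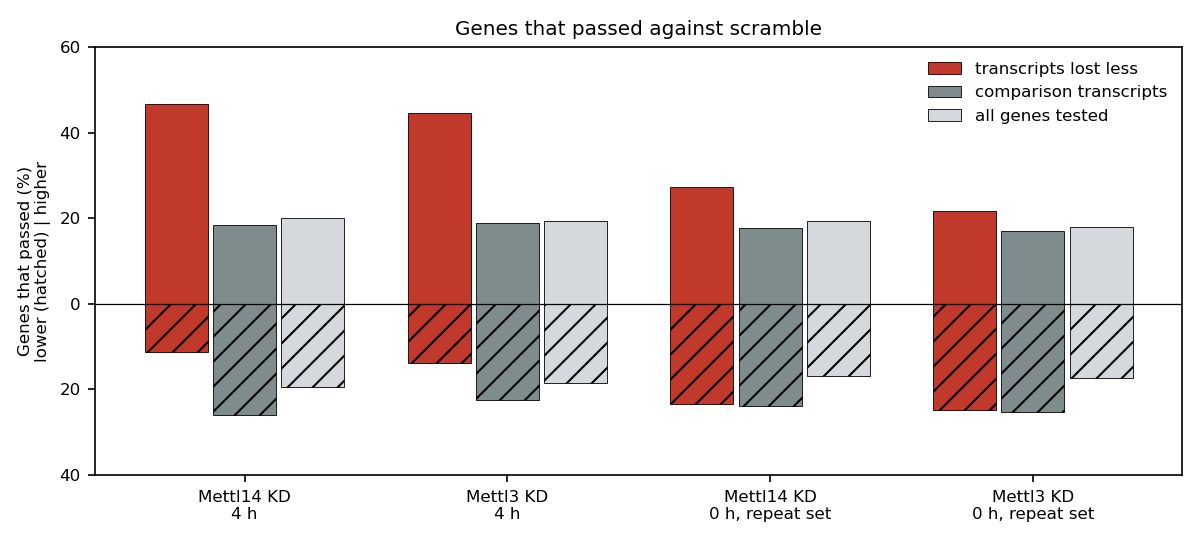
Share of genes (vertical axis, in percent) that passed limma at an adjusted p of 0.05 as higher (above the line) or lower (hatched, below it) than scramble, for the members, the comparison transcripts and all genes tested. At 4 h the members' upward bars reach 46.6% and 44.5%, against 20% and 19.4% of all genes; in the repeat set at 0 h they reach 27.2% and 21.6%, against 19.4% and 17.9%.

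Markers of other cells moved at 4 h as well. Of 15 tested feeder fibroblast markers, 8 were higher and 1 lower in Mettl14 KD, and 7 were higher and 2 lower in Mettl3 KD. The mean of that list over the arrays was 8.38 to 8.42 in Mettl14 KD, 8.31 to 8.35 in Mettl3 KD and 7.83 to 7.94 in scramble. Of 9 trophoblast markers, 5 were higher and 1 lower in each knockdown, with list means of 8.30 to 8.37 in Mettl14 KD, 8.20 to 8.27 in Mettl3 KD and 7.64 to 7.65 in scramble. Of 7 embryonic stem cell markers, 5 were lower in Mettl14 KD and 7 in Mettl3 KD, with list means of 10.66 on both Mettl14 KD arrays, 10.48 to 10.57 in Mettl3 KD and 11.08 to 11.10 in scramble. Of 6 primitive endoderm markers, 1 was lower in Mettl14 KD and none passed in Mettl3 KD, and of 4 neuroectoderm markers 1 was higher and 2 were lower in each knockdown. None of the 283 members is on these marker lists. The scramble decrease and starting level of the rule were met by 3 embryonic stem cell markers and 1 trophoblast marker. They were met by 0 feeder fibroblast, primitive endoderm or neuroectoderm markers, so none of those could be a member. The part of other cells in the result was not tested, and in bulk samples fewer cells of a type cannot be told apart from less RNA per cell.

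The members did not share a starting difference between knockdown and scramble. At 0 h, 41 members were lower than scramble by 0.4 or more in both knockdowns, 25 were higher by 0.4 or more in both, 90 lay within 0.2 in both, and 127 fell into none of these classes. After 8 h, 241 members stood above scramble in both knockdowns and 28 still stood below it in both. The rule itself places these 28 among the 41 with a low start, and it places every member that began level or high above scramble at 8 h, so neither is a result. At 4 h, on arrays the rule did not use, none of the 41 was higher than scramble in either knockdown, and 28 were lower in Mettl14 KD and 30 in Mettl3 KD. Of the 90 that began level with scramble, 41 were higher in Mettl14 KD and 43 in Mettl3 KD at 4 h and none was lower. All 25 with a high start were higher at 4 h in both knockdowns. The start classes use the 0 h arrays, which the rule also used, and they were set after the values were seen.

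**Figure D3:**
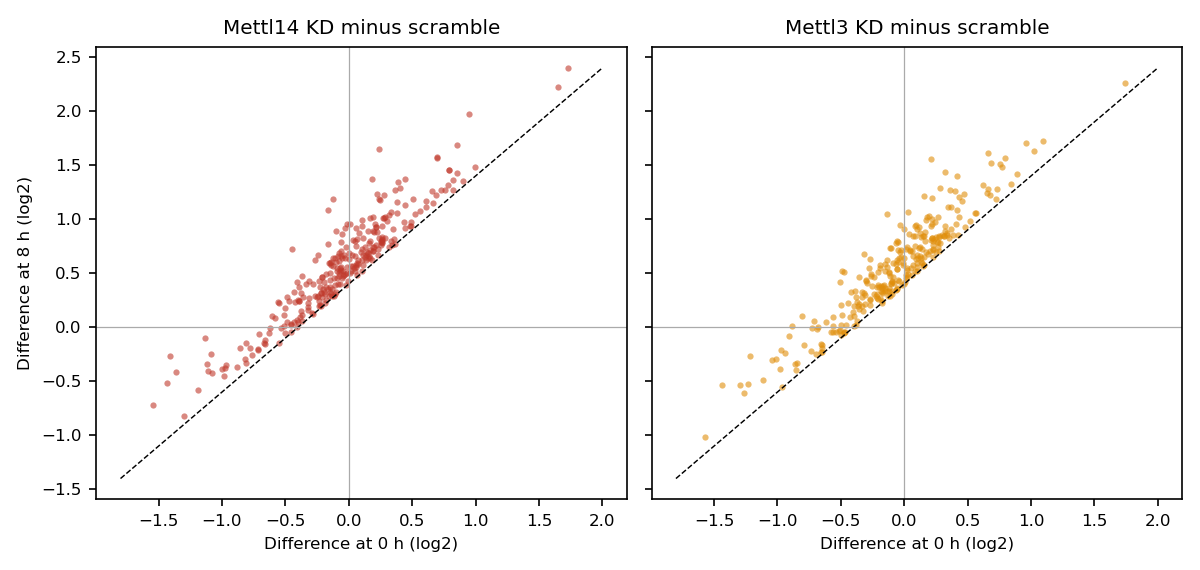
Difference from scramble at 8 h (vertical axis, log2) against the difference at 0 h (horizontal axis, log2) for each of the 283 members, in Mettl14 KD (left) and Mettl3 KD (right); the dashed line marks the excess of 0.4 that the rule asks for. Members spread on both sides of 0 at the start, with 41 lower and 25 higher by 0.4 or more in both knockdowns; that no point lies under the dashed line is set by the rule.

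The member with the largest mean excess was 1810055G02Rik. 1810055G02Rik read 10.27 and 10.24 at 0 h, 10.34 and 10.31 at 4 h and 10.10 and 10.10 at 8 h on the Mettl14 KD arrays. The Mettl3 KD arrays gave 10.25 and 10.22 at 0 h, 10.13 and 10.06 at 4 h and 10.05 and 9.97 at 8 h. With scramble it read 9.99 and 10.06 at 0 h, 9.30 and 9.25 at 4 h and 8.53 and 8.37 at 8 h. The knockdown arrays stayed close to their starting level and the scramble arrays ended far below theirs. Knockdown and scramble did not overlap at any time, 0 h included. At 4 h 1810055G02Rik differed by 1.05 ± 0.06 (limma, adjusted p = 5.68e-08) in Mettl14 KD and by 0.82 ± 0.06 (limma, adjusted p = 5.24e-07) in Mettl3 KD.

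S1pr2 encodes a G protein-coupled receptor for sphingosine 1-phosphate. S1pr2 read 9.53 and 9.56 at 0 h, 9.34 and 9.23 at 4 h and 8.97 and 9.09 at 8 h on the Mettl14 KD arrays. On the Mettl3 KD arrays it was 9.46 and 9.68 at 0 h, 9.28 and 9.30 at 4 h and 8.94 and 9.04 at 8 h. The scramble arrays read 9.70 and 9.71 at 0 h, 8.82 and 8.79 at 4 h and 8.03 and 7.85 at 8 h. The scramble arrays began above the knockdown arrays and ended below all of them. At 4 h S1pr2 differed by 0.48 ± 0.08 (limma, adjusted p = 0.000464) in Mettl14 KD and by 0.48 ± 0.08 (limma, adjusted p = 0.000502) in Mettl3 KD. At 0 h of the repeat set it did not pass in either knockdown, with differences of 0.06 and 0.06.

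Hs6st1 encodes an enzyme that adds sulfate to heparan sulfate chains. Hs6st1 read 10.31 and 10.35 at 0 h, 10.07 and 10.07 at 4 h and 9.92 and 9.90 at 8 h on the Mettl14 KD arrays. With Mettl3 KD it read 10.39 and 10.57 at 0 h, 9.88 and 9.92 at 4 h and 9.80 and 9.78 at 8 h. In scramble the values were 10.38 and 10.53 at 0 h, 9.24 and 9.32 at 4 h and 8.78 and 8.66 at 8 h. At 0 h the Mettl3 KD and scramble arrays were intermixed and both Mettl14 KD arrays lay below them. Knockdown and scramble were separate at 4 h, where Hs6st1 differed by 0.79 ± 0.07 (limma, adjusted p = 2.61e-06) in Mettl14 KD and by 0.62 ± 0.07 (limma, adjusted p = 2.07e-05) in Mettl3 KD.

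Phospho2 encodes a small phosphatase. Phospho2 read 8.91 and 8.80 at 0 h, 9.14 and 9.30 at 4 h and 8.90 and 8.96 at 8 h on the Mettl14 KD arrays. The Mettl3 KD arrays gave 8.71 and 8.77 at 0 h, 9.05 and 9.0 at 4 h and 9.01 and 8.97 at 8 h. Scramble arrays gave 8.40 and 8.43 at 0 h, 8.25 and 8.13 at 4 h and 7.60 and 7.52 at 8 h. In both knockdowns the mean signal at 8 h was above that at 0 h, while in scramble it was below. At 4 h Phospho2 differed by 1.02 ± 0.07 (limma, adjusted p = 1.95e-07) in Mettl14 KD and by 0.83 ± 0.07 (limma, adjusted p = 1.21e-06) in Mettl3 KD. Phospho2 of the repeat set read 8.89 and 8.92 with Mettl14 KD, against 8.47 and 8.56 with its scramble, and 8.77 and 8.84 with Mettl3 KD, against 8.54 and 8.63 with its scramble.

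Trib3 took a different course. It encodes a pseudokinase whose transcript is induced by the transcription factor Atf4. Trib3 read 7.14 and 7.47 at 0 h, 7.62 and 7.44 at 4 h and 7.36 and 7.55 at 8 h on the Mettl14 KD arrays. On the Mettl3 KD arrays it was 7.64 and 7.20 at 0 h, 7.22 and 7.31 at 4 h and 7.15 and 7.23 at 8 h. With scramble it read 8.55 and 8.89 at 0 h, 8.02 and 7.99 at 4 h and 7.56 and 7.88 at 8 h. Every knockdown array lay below every scramble array of the same time, from the start to 8 h, and the knockdown arrays stayed near their low starting level. The gap at 0 h was smaller in the repeat set. Trib3 read 8.07 and 8.02 there with Mettl14 KD, against 8.54 and 8.42 with its scramble. With Mettl3 KD it read 8.405 and 8.177, against 8.428 and 8.445 with its scramble. At 4 h Trib3 differed by -0.48 ± 0.16 (limma, adjusted p = 0.0339) in Mettl14 KD and by -0.74 ± 0.16 (limma, adjusted p = 0.00314) in Mettl3 KD. Atf4, also a member, differed by -0.18 (limma, adjusted p = 0.108) in Mettl14 KD and by -0.28 ± 0.08 (limma, adjusted p = 0.016) in Mettl3 KD.

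**Figure D4:**
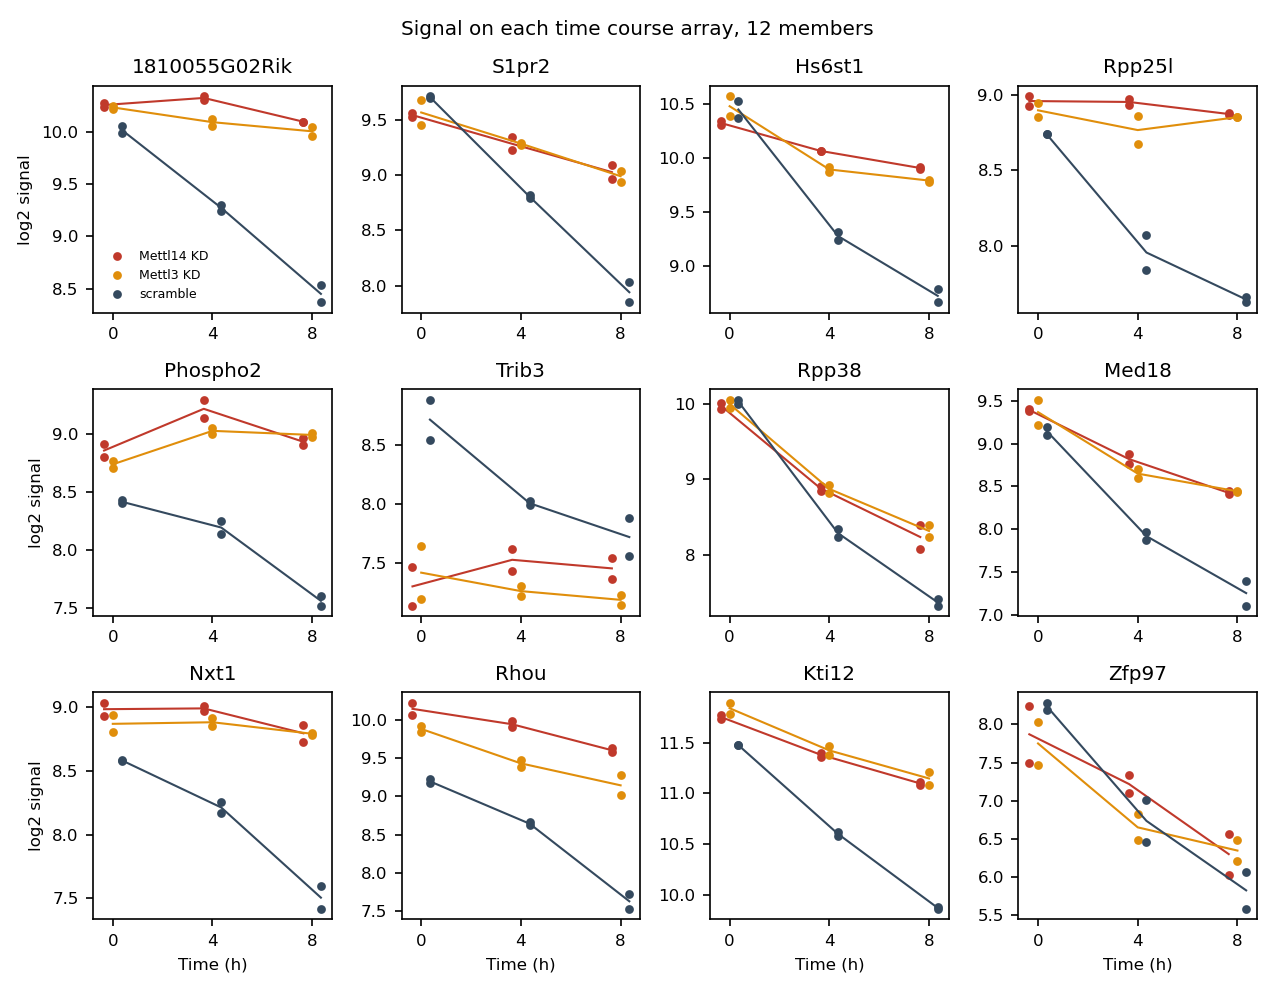
Log2 signal (vertical axis) against time in h (horizontal axis) on every time course array for the 12 members with the largest mean excess, with lines through the group means; vertical scales differ between panels. Trib3 is the panel in which both knockdowns lie below scramble at every time. In Zfp97 the arrays of Mettl3 KD and scramble overlap at 4 h and those of Mettl14 KD and scramble at 8 h.

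Roles were given to 171 of the 283 members after their names were seen, and 112 were left without one. The counts by role and by list below were not tested against other genes. At 4 h 20% of all genes tested were higher and 19.5% lower in Mettl14 KD, and 19.4% and 18.4% in Mettl3 KD. Of all members, 46.6% were higher and 11.3% lower in Mettl14 KD, and 44.5% and 13.8% in Mettl3 KD. Among 9 genes for tRNA and rRNA processing, 8 were higher at 4 h in Mettl14 KD and 7 in Mettl3 KD, and none was lower. The median 4 h difference of the 9 was 0.59 and 0.59. Rpp38, a protein subunit of ribonucleases P and MRP that cut precursor tRNA and rRNA, had the steepest scramble decrease among them at -2.66. Rpp38 read 10.01 and 9.93 at 0 h, 8.91 and 8.84 at 4 h and 8.07 and 8.40 at 8 h on the Mettl14 KD arrays. With Mettl3 KD it read 10.04 and 9.94 at 0 h, 8.93 and 8.81 at 4 h and 8.39 and 8.23 at 8 h. The scramble arrays read 10.05 and 10.0 at 0 h, 8.23 and 8.33 at 4 h and 7.33 and 7.41 at 8 h. All groups began near 10 and the knockdown arrays lay above scramble at 4 h and 8 h. At 4 h Rpp38 differed by 0.59 ± 0.10 (limma, adjusted p = 0.00036) in Mettl14 KD and by 0.59 ± 0.10 (limma, adjusted p = 0.000434) in Mettl3 KD.

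Rpp25l is related to another subunit of the same enzymes. Rpp25l read 8.99 and 8.93 at 0 h, 8.98 and 8.94 at 4 h and 8.87 and 8.88 at 8 h on the Mettl14 KD arrays. The Mettl3 KD arrays gave 8.85 and 8.95 at 0 h, 8.86 and 8.68 at 4 h and 8.85 and 8.86 at 8 h. In scramble the values were 8.74 and 8.74 at 0 h, 8.07 and 7.84 at 4 h and 7.62 and 7.66 at 8 h. Its signal hardly moved in the knockdowns, and at 4 h Rpp25l differed by 1.0 ± 0.08 (limma, adjusted p = 7.88e-07) in Mettl14 KD and by 0.81 ± 0.08 (limma, adjusted p = 4.83e-06) in Mettl3 KD. Kti12, which in yeast acts with the Elongator complex in modifying the tRNA wobble base, read 11.36 and 11.40 with Mettl14 KD, 11.47 and 11.38 with Mettl3 KD and 10.62 and 10.58 with scramble at 4 h. Every Kti12 knockdown array lay above every scramble array there, and Kti12 differed by 0.78 ± 0.06 (limma, adjusted p = 6.09e-07) in Mettl14 KD and by 0.82 ± 0.06 (limma, adjusted p = 4.17e-07) in Mettl3 KD. Abt1, a nucleolar factor, differed by 0.86 and 0.64, and Mettl6, a tRNA methyltransferase, by 0.63 and 0.62, all past the threshold. Smaller differences that passed in both were those of Imp3 of the U3 small nucleolar ribonucleoprotein (0.33 and 0.25) and Gtf3c4 of transcription factor IIIC (0.25 and 0.25). Ctu1, which thiolates tRNA, passed in Mettl14 KD alone at 0.51, with 0.26 in Mettl3 KD. Prorp, the nuclease of mitochondrial ribonuclease P, passed in neither.

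**Figure D5:**
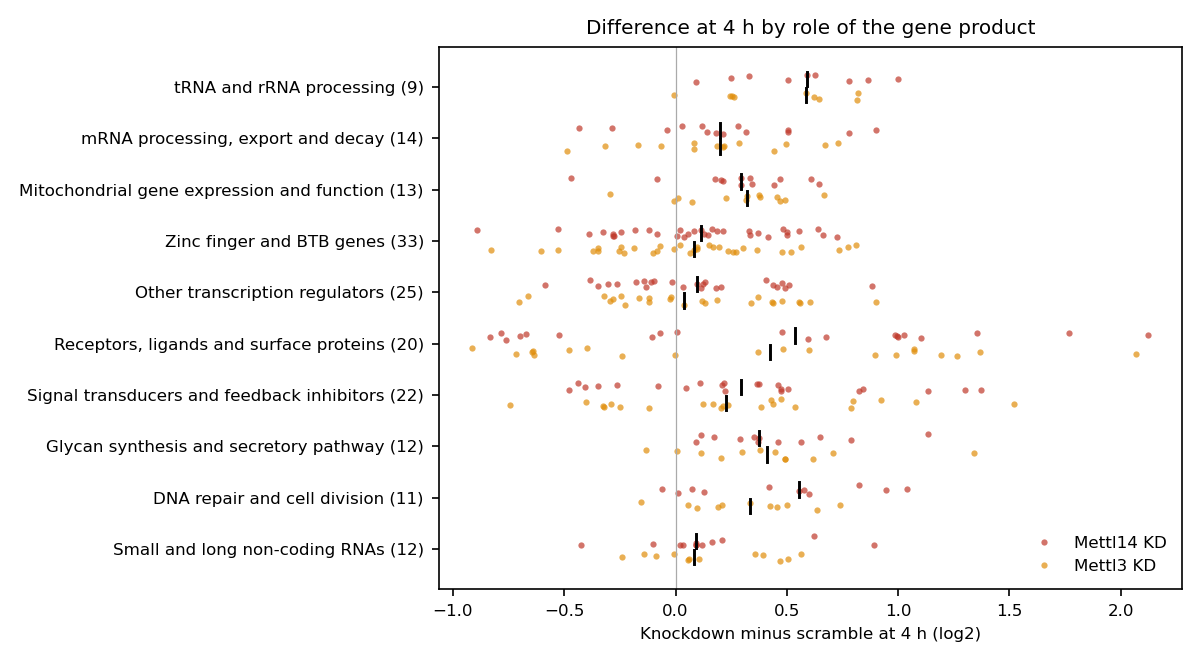
Difference from scramble at 4 h (horizontal axis, log2) for each member with a role, Mettl14 KD above Mettl3 KD within each role, with a black bar at the median and the number of members in brackets. The 9 genes for tRNA and rRNA processing have a median of 0.59 in both knockdowns, and the 20 receptors, ligands and surface proteins spread on both sides of 0.

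Of 12 genes for glycan synthesis and the secretory pathway, 10 were higher at 4 h in Mettl14 KD and 9 in Mettl3 KD, and none was lower. B3gnt5, which starts the lacto-series glycolipids, read 9.0 and 8.94 with Mettl14 KD, 9.24 and 9.11 with Mettl3 KD and 7.88 and 7.78 with scramble at 4 h. The groups did not overlap, and B3gnt5 differed by 1.13 ± 0.14 (limma, adjusted p = 4.58e-05) in Mettl14 KD and by 1.34 ± 0.14 (limma, adjusted p = 1.24e-05) in Mettl3 KD. B4galt3, a galactosyltransferase, differed by 0.65 and 0.71, and Mgat2, which acts in N-glycan branching, by 0.29 and 0.45. Srprb, a subunit of the signal recognition particle receptor, differed by 0.56 and 0.49 and Sec62 of the translocation channel by 0.38 and 0.49. These 4 passed in both knockdowns. B3gnt2 did not pass at 4 h in either, with 0.09 and 0.01.

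Receptors, ligands and surface proteins moved in both directions: of 20, 11 were higher and 6 lower in Mettl14 KD, and 11 were higher and 8 lower in Mettl3 KD. Prss8, a membrane-anchored serine protease of epithelia, had the highest 4 h difference of all members in each knockdown. It read 10.19 and 10.14 with Mettl14 KD, 10.12 and 10.10 with Mettl3 KD and 8.05 and 8.03 with scramble. The knockdown arrays lay far above the scramble arrays, and Prss8 differed by 2.12 ± 0.09 (limma, adjusted p = 6.54e-09) in Mettl14 KD and by 2.07 ± 0.09 (limma, adjusted p = 9.02e-09) in Mettl3 KD. Prss8 in the repeat set at 0 h read 10.04 and 10.07 with Mettl14 KD, against 8.68 and 8.74 with its scramble, and 9.76 and 9.74 with Mettl3 KD, against 8.78 and 8.65 with its scramble. It was higher there in both knockdowns, by 1.35 ± 0.05 (limma, adjusted p = 2.22e-05) and 1.04 ± 0.05 (limma, adjusted p = 5.67e-05).

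Epha2, a receptor tyrosine kinase for ephrins, read 9.75 and 9.84 with Mettl14 KD, 9.62 and 9.80 with Mettl3 KD and 8.41 and 8.48 with scramble at 4 h, and no knockdown array overlapped a scramble array. Here Epha2 differed by 1.35 ± 0.09 (limma, adjusted p = 2.04e-07) in Mettl14 KD and by 1.26 ± 0.09 (limma, adjusted p = 4.01e-07) in Mettl3 KD. At 0 h Epha2 already read 11.34 and 11.36 with Mettl14 KD, 11.21 and 11.15 with Mettl3 KD and 10.48 and 10.64 with scramble. In the repeat set at 0 h it read 10.45 and 10.55 with Mettl14 KD, against 10.60 and 10.60 with its scramble. Mettl3 KD gave 10.70 and 10.71 there, against 10.52 and 10.57 with its scramble. Fgfbp1, a carrier of fibroblast growth factors, read 10.36 and 10.26 with Mettl14 KD and 9.67 and 9.55 with Mettl3 KD at 4 h. In scramble it read 8.60 and 8.48, so Mettl14 KD lay above Mettl3 KD and both above scramble. Cldn4, a tight junction protein, read 10.27 and 10.26 with Mettl14 KD, 10.68 and 10.53 with Mettl3 KD and 9.19 and 9.28 with scramble and differed by 1.03 and 1.37, and Tnfrsf10b, a death receptor, by 1.10 and 1.07. Both passed in both knockdowns, as did the interferon gamma receptor Ifngr1 at 1.0 and 0.90. Tnfrsf10b already read 10.98 and 10.93 with Mettl14 KD, 10.90 and 10.97 with Mettl3 KD and 10.20 and 10.13 with scramble at 0 h.

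Lower at 4 h in both knockdowns were Gjb5, a gap junction connexin, Inhbb, the activin beta-B subunit, the Wnt receptor Fzd5, the angiogenic ligand Vegfa, the GABA-B receptor subunit Gabbr1 and the FGF receptor Fgfr2. Inhbb read 7.13 and 6.88 with Mettl14 KD, 7.14 and 7.0 with Mettl3 KD and 7.64 and 7.77 with scramble. Every knockdown array was below the scramble arrays, and Inhbb differed by -0.70 ± 0.14 (limma, adjusted p = 0.00131) in Mettl14 KD and by -0.64 ± 0.14 (limma, adjusted p = 0.00272) in Mettl3 KD. At 0 h Inhbb differed from scramble by -1.36 and -1.26 and its 8 h change was 0.02 and -0.26, against -0.92 in scramble. It was lower in the repeat set by -1.11 ± 0.10 (limma, adjusted p = 0.00035) and -1.34 ± 0.10 (limma, adjusted p = 0.000195). Gabbr1 read 9.25 and 9.38 with Mettl14 KD, 9.30 and 9.17 with Mettl3 KD and 10.24 and 10.06 with scramble at 4 h, and Gjb5 read 6.77 and 6.57 with Mettl14 KD, 6.87 and 6.77 with Mettl3 KD and 7.42 and 7.50 with scramble. In both genes the scramble arrays were the highest.

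Of 22 signal transducers and feedback inhibitors, 12 were higher and 4 lower in Mettl14 KD, and 13 were higher and 4 lower in Mettl3 KD. Rhou was followed over the whole time course. Rhou read 10.23 and 10.07 at 0 h, 9.98 and 9.91 at 4 h and 9.58 and 9.63 at 8 h on the Mettl14 KD arrays. On the Mettl3 KD arrays it was 9.85 and 9.92 at 0 h, 9.48 and 9.39 at 4 h and 9.27 and 9.02 at 8 h. Scramble arrays gave 9.17 and 9.22 at 0 h, 8.66 and 8.63 at 4 h and 7.73 and 7.53 at 8 h. It was high in the knockdowns from the start and the groups did not overlap at any time. At 4 h Rhou differed by 1.30 ± 0.09 (limma, adjusted p = 2.92e-07) in Mettl14 KD and by 0.79 ± 0.09 (limma, adjusted p = 2.09e-05) in Mettl3 KD, and in the repeat set it was higher by 1.16 ± 0.05 (limma, adjusted p = 2.6e-05) and 1.08 ± 0.05 (limma, adjusted p = 4.7e-05). Traf4, an adaptor of the TNF receptor associated factors, already read 11.19 and 11.19 with Mettl14 KD at 0 h. Mettl3 KD gave 11.15 and 11.15 there, and scramble 10.45 and 10.53. At 4 h Traf4 differed by 1.14 ± 0.05 (limma, adjusted p = 7.01e-09) and 1.08 ± 0.05 (limma, adjusted p = 1.27e-08). Rragc, a GTPase of amino acid sensing by mTORC1, differed by 0.50 and 0.47, and Ppm1d, a phosphatase that turns off DNA damage signalling, by 0.48 and 0.43, both past the threshold in both.

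The lists of feedback inhibitors and of pluripotency genes held 4 members each, among 20 and 13 genes with the scramble decrease and starting level. Of all 1442 genes with that decrease and level, 283 were members, leaving aside those left out by name. Socs3, which damps Stat3 signalling from the LIF receptor, read 7.64 and 7.63 with Mettl14 KD, 7.54 and 7.61 with Mettl3 KD and 7.94 and 8.02 with scramble at 4 h. It was lower in both knockdowns, by -0.35 ± 0.08 (limma, adjusted p = 0.00326) and -0.40 ± 0.08 (limma, adjusted p = 0.00135), although its 8 h change was -1.29 and -1.05, against -1.77 in scramble. Smad6, an inhibitor of BMP signalling, was lower at 4 h by -0.41 ± 0.07 (limma, adjusted p = 0.000835) and -0.33 ± 0.07 (limma, adjusted p = 0.00386). Znrf3, which removes Wnt receptors from the surface, read 8.40 and 8.59 with Mettl14 KD, 8.42 and 8.37 with Mettl3 KD and 8.26 and 8.29 with scramble and passed in neither. Tob1, which recruits deadenylases, read 7.08 and 7.16 with Mettl14 KD, 7.24 and 6.89 with Mettl3 KD and 7.54 and 7.57 with scramble and was lower in both, by -0.43 ± 0.14 (limma, adjusted p = 0.0288) and -0.49 ± 0.14 (limma, adjusted p = 0.0164). Of 32 feedback inhibitors tested, 6 were higher and 8 lower in Mettl14 KD, and 5 were higher and 6 lower in Mettl3 KD.

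Pluripotency members were Socs3, Gbx2, Mycn and Sall1, among 13 genes of that list with the scramble decrease. A further 4 of the list met the thresholds and were left out by name. Gbx2, a homeobox factor, read 8.20 and 8.47 with Mettl14 KD, 7.92 and 7.94 with Mettl3 KD and 8.57 and 8.71 with scramble at 4 h and was lower in Mettl3 KD by -0.70 ± 0.13 (limma, adjusted p = 0.00109), while Mettl14 KD gave -0.30 (limma, adjusted p = 0.091). Gbx2 in the repeat set read 8.94 and 9.10 with Mettl14 KD, against 10.02 and 10.06 with its scramble, and 9.17 and 9.14 with Mettl3 KD, against 10.20 and 10.18 with its scramble. It was lower there by -1.02 ± 0.06 (limma, adjusted p = 6.13e-05) and -1.03 ± 0.06 (limma, adjusted p = 6.82e-05). Mycn, a Myc family factor, read 8.94 and 9.03 with Mettl14 KD, 8.90 and 8.76 with Mettl3 KD and 8.85 and 8.86 with scramble and passed in neither knockdown. Sall1, a zinc finger factor, read 9.70 and 9.83 with Mettl14 KD, 9.88 and 9.78 with Mettl3 KD and 9.98 and 10.04 with scramble and was lower in both, by -0.24 and -0.19. Of 38 pluripotency genes tested, 1 was higher and 27 lower in Mettl14 KD, and 31 were lower and 0 higher in Mettl3 KD by limma.

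Other lists held members too, where 283 of all 1442 genes with the scramble decrease and starting level were members. Id2, an inhibitor of basic helix-loop-helix factors and a BMP target, read 10.99 and 11.07 with Mettl14 KD, 11.06 and 11.03 with Mettl3 KD and 10.17 and 10.12 with scramble at 4 h and Id2 differed by 0.88 ± 0.06 (limma, adjusted p = 2.68e-07) in Mettl14 KD and by 0.90 ± 0.06 (limma, adjusted p = 2.48e-07) in Mettl3 KD. Id2 and Mycn were the only members among 23 short-lived or early response transcripts with the scramble decrease. Of the p53 targets, Tnfrsf10b and Tigar were members among 10 with that decrease. Tigar, which lowers glycolysis, read 8.70 and 8.85 with Mettl14 KD, 8.80 and 8.83 with Mettl3 KD and 9.14 and 9.10 with scramble. Of 22 p53 targets tested, 17 were higher and 2 lower in Mettl14 KD, and 16 were higher and 1 lower in Mettl3 KD. Among 55 genes of mRNA deadenylation and decay, Tob1 and Tnrc6a, a scaffold of miRNA silencing that read 9.58 and 9.67 with Mettl14 KD, 9.66 and 9.46 with Mettl3 KD and 9.34 and 9.35 with scramble, were members. In that list 9 genes had the scramble decrease and starting level. Of the list, 4 were higher and 18 lower in Mettl14 KD, and 9 were higher and 20 lower in Mettl3 KD. No member came from the m6A list or from the long-lived list. Wtap of the m6A list met the thresholds and was left out by name. The scramble decrease and starting level were met by 3 further genes of that list. In the long-lived list 0 genes met them, so none could be a member. In the m6A list 6 of 18 were higher and 4 lower in Mettl14 KD, and 6 were higher and 1 lower in Mettl3 KD.

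Zinc finger and BTB genes formed the largest group with 33 members, of which 10 were higher and 6 lower in Mettl14 KD, and 8 were higher and 8 lower in Mettl3 KD. Zfp-named genes made up 7.77% of the members, 7.85% of the comparison transcripts and 2.19% of all genes tested. Zfp985 read 6.49 and 6.93 with Mettl14 KD, 6.84 and 6.71 with Mettl3 KD and 7.62 and 7.59 with scramble at 4 h, with both knockdowns below scramble, and Zfp985 differed by -0.89 ± 0.25 (limma, adjusted p = 0.0128) in Mettl14 KD and by -0.83 ± 0.25 (limma, adjusted p = 0.0201) in Mettl3 KD. Without an array of scramble at 4 h, or without the first Mettl14 KD array, the adjusted p for Mettl14 KD was 0.0527 to 0.119, and without any 1 of the arrays compared that for Mettl3 KD was 0.0574 to 0.0975. Zfp948 was higher by 0.73 ± 0.16 (limma, adjusted p = 0.00297) and 0.81 ± 0.16 (limma, adjusted p = 0.00157). Zfp97 read 7.11 and 7.33 with Mettl14 KD, 6.48 and 6.82 with Mettl3 KD and 6.46 and 7.01 with scramble and passed in neither. At 8 h Zfp97 read 6.03 and 6.57 with Mettl14 KD, 6.49 and 6.21 with Mettl3 KD and 6.07 and 5.58 with scramble. Its Mettl14 KD and scramble arrays overlapped there, near the lowest mean signal of any gene tested, 5.998. Probes of near-identical zinc finger genes can bind RNA of more than 1 copy, so these members are uncertain.

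Among 25 other transcription regulators, 9 were higher and 3 lower in Mettl14 KD, and 10 were higher and 5 lower in Mettl3 KD. Elf1, an ETS factor, differed by 0.49 and 0.60, and Mtf1, the metal-responsive factor, by 0.45 and 0.37, past the threshold in both. Nr1d1, a repressor of the circadian clock, was lower by -0.26 and -0.32. Med18, a subunit of the Mediator complex counted with the mRNA genes, had these values. Med18 read 9.41 and 9.38 at 0 h, 8.88 and 8.76 at 4 h and 8.41 and 8.44 at 8 h on the Mettl14 KD arrays. With Mettl3 KD it read 9.22 and 9.52 at 0 h, 8.70 and 8.60 at 4 h and 8.45 and 8.44 at 8 h. With scramble it read 9.20 and 9.10 at 0 h, 7.87 and 7.97 at 4 h and 7.40 and 7.11 at 8 h. The knockdown arrays lay above the scramble arrays at every time, 0 h included. At 4 h Med18 differed by 0.90 ± 0.10 (limma, adjusted p = 2.19e-05) in Mettl14 KD and by 0.73 ± 0.10 (limma, adjusted p = 0.000127) in Mettl3 KD. Of 14 genes for mRNA processing, export and decay, 5 were higher and 1 lower in each knockdown. Nxt1, a partner of the mRNA export receptor, read 9.01 and 8.97 with Mettl14 KD, 8.85 and 8.91 with Mettl3 KD and 8.26 and 8.17 with scramble at 4 h, and Nxt1 differed by 0.78 ± 0.07 (limma, adjusted p = 4.02e-06) in Mettl14 KD and by 0.67 ± 0.07 (limma, adjusted p = 1.43e-05) in Mettl3 KD. Smg8, a factor of nonsense-mediated decay, passed in neither, with 0.12 and 0.19.

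For 13 genes of mitochondrial function, 7 were higher and 1 lower in each knockdown. Coa7, a factor for cytochrome c oxidase, read 9.03 and 9.01 with Mettl14 KD, 8.90 and 8.83 with Mettl3 KD and 8.40 and 8.36 with scramble and Coa7 differed by 0.65 ± 0.07 (limma, adjusted p = 2.03e-05) in Mettl14 KD and by 0.49 ± 0.07 (limma, adjusted p = 0.000195) in Mettl3 KD. Mrps2, a protein of the small mitochondrial ribosomal subunit, differed by 0.47 and 0.45, and Mcat of mitochondrial fatty acid synthesis by -0.47 and -0.30, all past the threshold. Of 11 genes for DNA repair and cell division, 7 were higher in each knockdown and none was lower. Ddias read 9.25 and 9.31 with Mettl14 KD, 9.0 and 8.96 with Mettl3 KD and 8.26 and 8.22 with scramble and was higher by 1.04 and 0.74, and Cdca5, the cohesin protector sororin, was higher by 0.58 and 0.45.

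Members without a role were among the largest 4 h differences too. Lysmd2 read 9.74 and 9.51 with Mettl14 KD, 9.79 and 9.60 with Mettl3 KD and 8.48 and 8.42 with scramble, and the knockdown arrays were all above scramble. At 0 h Lysmd2 already read 9.73 and 9.58 with Mettl14 KD, 9.67 and 9.52 with Mettl3 KD and 8.85 and 8.75 with scramble. At 4 h it was higher by 1.18 ± 0.09 (limma, adjusted p = 6.74e-07) and 1.24 ± 0.09 (limma, adjusted p = 4.52e-07). Cnpy1 read 8.48 and 8.49 with Mettl14 KD, 8.12 and 8.0 with Mettl3 KD and 9.50 and 9.43 with scramble and Prss42, a serine protease, read 6.87 and 6.87 with Mettl14 KD, 6.90 and 6.93 with Mettl3 KD and 8.11 and 7.91 with scramble. In both genes the knockdown arrays were all below scramble, with Cnpy1 lower by -0.98 and -1.40. Kctd15 read 7.50 and 7.61 with Mettl14 KD, 8.26 and 8.10 with Mettl3 KD and 8.54 and 8.48 with scramble, lowest with Mettl14 KD, and 4930447C04Rik read 7.90 and 8.04 with Mettl14 KD, 7.63 and 7.81 with Mettl3 KD and 8.61 and 8.62 with scramble, lowest with Mettl3 KD.

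Small and long non-coding RNAs gave 12 members, of which 2 were higher in each knockdown at 4 h and none lower. These were Zfas1, a host transcript of small nucleolar RNAs, at 0.89 and 0.56, and Snord52 at 0.62 and 0.51. A further probe set of Zfas1, at 10.92 in scramble at 0 h, changed by -3.35 over 8 h in scramble. Its excess was -0.02 in Mettl14 KD and 0.37 in Mettl3 KD, short of the rule. Of the other non-coding members, 4 carry microRNA gene symbols, and all 4 matched RefSeq on GRCm38.p6 with 6 mature sequences in all. They are shown because Mir1983 had the steepest scramble decrease of any member. Seed bases 2 to 8 are in capitals, and each of the 6 seeds occurs once.
mmu-miR-1983: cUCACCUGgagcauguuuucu
mmu-miR-708-5p: aAGGAGCUuacaaucuagcuggg
mmu-miR-708-3p: cAACUAGAcugugagcuucuag
mmu-miR-329-5p: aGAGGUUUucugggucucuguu
mmu-miR-329-3p: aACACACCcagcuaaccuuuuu
mmu-miR-5125: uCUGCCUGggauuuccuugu
The probe sets carry the symbol of the microRNA gene, the RNA was selected for poly(A), and which form of the RNA was bound was not tested. Mir1983 changed by -4.35 in Mettl14 KD and -4.15 in Mettl3 KD over 8 h, against -5.13 in scramble. It started at 8.60 and 8.54 with Mettl14 KD and 8.45 and 8.85 with Mettl3 KD, against 9.19 and 9.06 with scramble, and ended at 4.16 and 4.29 with Mettl14 KD, 4.87 and 4.13 with Mettl3 KD and 4.09 and 3.89 with scramble. Those end values lie under the lowest mean signal of any gene tested, 5.998, and Mir1983 passed the filter on dim genes through its 0 h arrays, so its changes to 8 h do not measure how much was lost. At 4 h it read 4.08 and 4.26 with Mettl14 KD, 4.77 and 4.55 with Mettl3 KD and 4.45 and 4.74 with scramble, where the arrays of Mettl3 KD and scramble overlapped and it passed in neither knockdown. Mir708 read 5.66 and 5.90 with Mettl14 KD, 5.59 and 5.31 with Mettl3 KD and 5.72 and 5.66 with scramble and did not pass either. At 8 h it read 4.84 and 5.15 with Mettl14 KD, 5.16 and 4.55 with Mettl3 KD and 4.65 and 4.85 with scramble. These values also lie under 5.998, and knockdown and scramble arrays overlapped. Its changes to 8 h do not measure how much was lost either. Mir5125 at 8 h read 10.04 and 10.24 with Mettl14 KD, 10.12 and 10.10 with Mettl3 KD and 10.04 and 8.76 with scramble. The first scramble array lay among the knockdown arrays, so the excess of Mir5125 rests on the second.

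Promoters were compared as a description. RefSeq promoters on GRCm38.p6, from 250 bases before to 50 after the gene start, were matched for 230 members, 890 comparison transcripts and 11545 of the genes tested. The cAMP response element TGACGTCA, whose reverse complement is the same, was in 19 member promoters, or 8.26%. It was in 3.82% of comparison promoters, 3.32% of those of all genes tested and 2.03% of all promoters in the table. The 8 motifs given here were kept from a wider first search on both strands, this element was chosen for display after the shares were seen, and no test was made. The GC box GGGCGG was in 71.7% of member and 71.6% of comparison promoters, against 65.1% of those tested and 38.2% of all in the table. The ETS core CCGGAAG was in 19.1% of member and 23.5% of comparison promoters, against 17.3% and 9.93%. The remaining motifs, with the share in members, comparison transcripts, genes tested and the whole table, were the YY1 element AAGATGGCG (4.78%, 4.38%, 3.05% and 1.64%), TATAAA (10.4%, 8.31%, 9.4% and 15.7%), the E-box CACGTG (12.6%, 13.3%, 11.2% and 8.09%), CCAAT (48.3%, 45.7%, 41.9% and 41.1%) and the NRF1 core CGCATGCG (3.48%, 5.51%, 3.82% and 2.07%). Stretches of 100 bases around the element are shown for the 3 members of largest excess that hold it before the start, with the element in capitals.
S1pr2: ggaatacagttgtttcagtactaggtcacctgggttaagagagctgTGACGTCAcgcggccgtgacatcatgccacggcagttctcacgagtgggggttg
Phospho2: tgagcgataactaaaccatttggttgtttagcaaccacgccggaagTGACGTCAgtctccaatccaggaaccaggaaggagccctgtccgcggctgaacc
Coa7: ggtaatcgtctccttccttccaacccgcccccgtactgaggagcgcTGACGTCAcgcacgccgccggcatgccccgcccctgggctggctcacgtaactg
These lie at chr9:20976921-20977020 on the - strand, chr2:69789529-69789628 on the + strand and chr4:108328047-108328146 on the + strand. A match describes the letters and does not show that a factor binds there.

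The repeat set, which the rule did not use, held 0 h arrays only. There 77 members were higher (27.2%) and 66 lower (23.3%) in Mettl14 KD, where 19.4% of all genes were higher and 16.9% lower. In Mettl3 KD 61 were higher (21.6%) and 70 lower (24.7%), where 17.9% were higher and 17.4% lower. The comparison transcripts gave 17.8% higher and 23.8% lower in Mettl14 KD and 17.1% and 25.2% in Mettl3 KD. In both knockdowns 48 members were higher and 52 lower, with background shares of 12.5% and 11.3%, and 1 passed in opposite directions. Median differences over the members were 0.03 and -0.0018. Of the 41 members with a low start in the time course, 29 were lower here in Mettl14 KD and 31 in Mettl3 KD and none was higher. Of the 25 with a high start, 17 and 20 were higher and 2 and 2 were lower. Markers of other cells moved here too. Of the 9 trophoblast markers, 7 were higher and 1 lower in Mettl14 KD with a median of 1.19, and 6 were higher and 1 lower in Mettl3 KD with a median of 0.82. Their list means were 8.801 to 8.836 in Mettl14 KD, against 7.948 to 7.992 in its scramble, and 8.426 to 8.502 in Mettl3 KD, against 7.87 to 7.889 in its scramble. Of the 15 feeder fibroblast markers, 6 were higher and 0 lower in Mettl14 KD and 5 were higher and 1 lower in Mettl3 KD by limma, with list means of 8.317 to 8.341 in Mettl14 KD, against 8.121 to 8.172 in its scramble, and 8.23 to 8.258 in Mettl3 KD, against 8.002 on both arrays of its scramble. Of the 7 embryonic stem cell markers, 7 were lower in Mettl14 KD and 6 in Mettl3 KD, with list means of 10.949 to 10.969 in Mettl14 KD, against 11.342 to 11.382 in its scramble, and 10.964 to 10.995 in Mettl3 KD, against 11.337 to 11.366 in its scramble. The part of these cells in the members' counts was not tested.

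Among single members of the repeat set, Fgf15, a fibroblast growth factor, read 8.87 and 8.76 with Mettl14 KD, against 10.12 and 10.14 with its scramble, and 9.80 and 9.87 with Mettl3 KD, against 10.03 and 10.0 with its scramble. It was lower by -1.31 ± 0.05 (limma, adjusted p = 2.22e-05) and -0.18 ± 0.05 (limma, adjusted p = 0.0384), whereas at 4 h of the time course it read 8.58 and 8.71 with Mettl14 KD, 8.30 and 8.37 with Mettl3 KD and 7.98 and 7.95 with scramble and was higher by 0.68 ± 0.11 (limma, adjusted p = 0.00029) and 0.37 ± 0.11 (limma, adjusted p = 0.016). The p-values of the 2 sets come from separate fits and their difference was not tested here. Rbl2, a retinoblastoma family protein, was lower in the repeat set by -0.95 and -1.21. Prss42 was lower by -1.37 and -1.34 and was also lower at 4 h, by -1.14 and -1.09. Zdhhc9, a palmitoyltransferase, was higher in both knockdowns, at 0.85 and 0.61.

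Between the knockdowns few members passed. At 4 h, 19 members were higher in Mettl14 KD than in Mettl3 KD (6.71%) and 6 were lower (2.12%), where 3.23% of all genes were higher and 2.88% lower. When any 1 of the arrays compared was left out, 7 to 11 were higher and 0 to 2 lower by limma. Cdca4, a nuclear protein of the cell cycle, read 10.04 and 10.04 with Mettl14 KD, 8.91 and 8.97 with Mettl3 KD and 9.08 and 9.11 with scramble. Its Mettl3 KD arrays lay a little below scramble and its Mettl14 KD arrays above both. The difference between the knockdowns was 1.10 ± 0.11 (limma, adjusted p = 0.00011). At 0 h Cdca4 read 11.01 and 11.05 with Mettl14 KD, 10.58 and 10.71 with Mettl3 KD and 10.88 and 10.81 with scramble. In the repeat set the knockdown effects, each against its own scramble, differed for 8 members, 3 upward (1.06%) and 5 downward (1.77%), where 1.54% and 1.5% of all genes did. Without any 1 of the arrays 1 to 2 differed upward and 1 to 2 downward.

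Of 17 members with further probe sets, 19 such probe sets were measured. In 12 of them the excess was above 0 in both knockdowns, and 2 met the limits on the excess and the scramble change. These 2 were of Imp3 and Glce. Among those that did not, the further probe set of Gbx2 changed by 0.103 in scramble from a start of 7.825. Its excess was 0.099 in Mettl14 KD and 0.121 in Mettl3 KD. Along the genome 7 pairs of members were neighbours among the 261 that matched a protein-coding symbol. The order was that of tested protein-coding genes in RefSeq on GRCm38.p6, so genes not tested may lie between. The pairs were Zfp781 and Zfp873, Tmem17 and B3gnt2, N4bp3 and 0610009B22Rik, Lrr1 and Mgat2, Srrd and Hps4, Ing1 and Ankrd10, and Ankrd10 and Arhgef7. Whether neighbouring genes share probes or RNA was not tested.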

How the data were processed

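RNA purified for poly(A) tails was measured on 26 arrays of the type Affymetrix Mouse Gene 2.0 ST. The log2 values are as deposited: the submitters' processing notes name RMA and the oligo package without versions. RMA removes background, gives all arrays 1 distribution and summarises probes, so a value is relative to its array. Of 41345 probe sets, 23521 had 1 symbol in the probe table, 1814 several and 16010 were unlisted. The brightest stood for each of 22180 genes. The dimmest 7393 (a fraction of 0.333) were left out and 14787 tested.

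Tests used limma 3.58.1 under R 4.3.3: lmFit and eBayes without trend, two-sided, Benjamini-Hochberg adjusted, at a threshold of 0.05. The 18 time course arrays gave 9 residual degrees of freedom and the 8 repeat arrays 4. ± is limma's standard error of a log2 difference. Nothing places the 2 arrays of a group in separate cultures beyond their label as biological replicates, and p-values reflect the spread between them. The members, lists and roles were chosen with earlier results of these data known. Every member could be named. Array values were to be printed for the 12 of largest mean excess, members on a list, the 6 largest differences each way in each comparison and genes at a threshold; some of these are given by difference or group only, and some are not reported here. Replicate numbers did not pair the samples. Alternatives were the dim filter, averaged probe sets, trend and robust, array weights, a replicate block, renewed quantile normalization, equal long-lived medians, other arrays in the fit, other limits of the rule, and leaving out each array.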

Additional observations from a re-analysis of the deposited data

Results flagged for a closer look

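Some members differed between the knockdowns by a test of that difference on arrays the rule did not use. At 4 h Cdca4 was higher in Mettl14 KD than in Mettl3 KD by 1.10 (limma, adjusted p = 0.00011), Fgfbp1 by 0.70 (limma, adjusted p = 0.000395) and Pramel12 by 0.58 (limma, adjusted p = 0.000706). Smaller differences in the same direction were those of Rhou at 0.51, 9230114K14Rik at 0.49 and Ankib1 at 0.42. Lower in Mettl14 KD than in Mettl3 KD were Kctd15 by -0.63 (limma, adjusted p = 0.0337), Trim13 at -0.42, Fbxl5 at -0.42, Cldn4 at -0.34, the epithelial ETS factor Elf3 at -0.34 and Zfp592 at -0.23. Cdca4, Fgfbp1, Pramel12 and Ankib1 passed without any 1 of the arrays compared, and the other 8 lost the call without at least 1 of them. The adjusted p (limma) of Kctd15 was 0.0983 to 0.193 without an array and 0.0728 without the filter on dim genes, that of Trim13 was 0.0525 to 0.0792 and that of Fbxl5 0.0632 to 0.107 without an array. For 9230114K14Rik it was 0.132 to 0.171 without an array, and for Zfp592 it reached 0.305, for Cldn4 0.133, for Rhou 0.0601 and for Elf3 0.0545.

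In the repeat set the difference between the knockdown effects, each against its own scramble, was -1.13 (limma, adjusted p = 0.00391) for Fgf15 and 0.75 (limma, adjusted p = 0.0078) for Pik3cb, a catalytic subunit of phosphoinositide 3-kinase. It was 0.40 for the thiamine transporter Slc19a2 and 0.36 for B4galt3. Downward it was -0.50 for Sall1, -0.45 for Zbtb8a, -0.42 for Tcf15, a basic helix-loop-helix factor, and -0.36 for Rpp25l. Fgf15 and Pik3cb passed under all settings tried, and the other 6 lost the call under some. Without any 1 array the adjusted p (limma) was 0.0629 to 0.0825 for Slc19a2, 0.07 to 0.0838 for B4galt3, 0.0523 to 0.0767 for Tcf15, 0.0575 to 0.121 for Zbtb8a and 0.0805 to 0.131 for Rpp25l, and that of Sall1 reached 0.0532. In the fit over all 26 arrays B4galt3 had an adjusted p of 0.346.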

How the results depend on the processing

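At 4 h the number of members higher than scramble was 114 to 118 for Mettl14 KD and 103 to 115 for Mettl3 KD when 1 array was left out, and that of members lower was 19 to 26 and 25 to 31; with other settings these counts were 113 to 146, 109 to 140, 25 to 43 and 36 to 53. In the repeat set, leaving out an array gave 54 to 63 higher and 49 to 54 lower for Mettl14 KD, and 44 to 52 and 52 to 63 for Mettl3 KD. The direct difference at 4 h was less stable: 7 to 11 higher and 0 to 2 lower without an array, 12 higher without the dim filter and 12 with equal long-lived medians, and 10 lower with array weights. For the difference of effects in the repeat set, upward members were 1 without the filter, 21 with trend and robust, 1 with equal long-lived medians and 1 to 2 without an array, and downward ones were 1, 15, 2 and 1 to 2 in the same order, 3 with the replicate block and 8 after renewed quantile normalization. The rule gave 678 genes with equal long-lived medians, 174 at an excess of 0.5, 435 at 0.3 and 213 to 427 without an array; after renewed quantile normalization it gave 190 genes, which hold 184 of the 283 members (65%). The cause of these shifts was not tested. The replicate block gave 131 higher and 31 lower members for Mettl14 KD at 4 h, 128 and 39 for Mettl3 KD, 74 and 61 for Mettl14 KD in the repeat set, 60 and 66 for Mettl3 KD there, and 18 and 7 for the direct difference; same-numbered arrays correlated at -0.44 to 0.34 over 36 pairs of time course groups, so the block is no pairing. Of 884 values of single members under these settings, 787 kept direction and side of the threshold, 97 no longer passed and 0 reversed.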
